A study of Rattus norvegicus with 43 samples.

Results

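Integrins, laminins and focal adhesion proteins anchor the cells of an epithelium and its underlying tissue to their matrix, and their transcripts are described here in the rat foreskin before and after birth. The genes were chosen by symbol: numbered alpha and beta integrin subunits, laminin chains, focal adhesion kinase (Ptk2), vinculin, the talins, integrin-linked kinase (Ilk), the parvins, paxillin, zyxin, dystroglycan (Dag1) and the nidogens. The rule found 29 probes of 26 genes, against 22523 probes and 13337 named genes on the whole array. Of these, 25 probes of 22 genes were detected on at least 5 of 43 arrays and were tested. The 4 others were those of Itgb8 and Lamc3, detected on 0 arrays, Itga10, detected on 2, and Itga8, detected on 3. Itga6, Lama2, Lama3, Lama5, both nidogens, both talins, Parvb and Parvg were not analysed here.

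As background, an integrin is a membrane receptor of an alpha and a beta subunit: the beta subunit Itgb1 pairs with Itga1, Itga2, Itga5, Itga7 and Itga11 among others, and Itgb4 holds basal keratinocytes to the basement membrane at hemidesmosomes. Laminins are basement membrane proteins built of an alpha, a beta and a gamma chain. On the inside of the cell, bound integrins gather into focal adhesions, where Ilk and parvin link them to actin and focal adhesion kinase passes on a signal. The foreskin of a rat around birth is a skin fold in which an epithelial sheet, with its basement membrane, lies in a fibroblast-rich dermis.

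RNA was measured on Illumina RatRef-12 beadchips, with 1 array for each of 43 litters of Sprague Dawley rats. Per the design text, 2 foreskins of a litter were pooled for an array. Pregnant dams were gavaged with corn oil or with dibutyl phthalate (DBP), a plasticizer, from gestational day 16 to 20. On gestational day 20 (GD20) the doses were separate studies: 5 litters exposed to 500 mg/kg/day (DBP500) with 6 corn oil litters, and 5 litters exposed to 100 mg/kg/day (DBP100) with 6 corn oil litters of their own. On postnatal day 5 (PND5) there were 7 corn oil, 7 DBP100 and 7 DBP500 litters, from dams dosed only before birth. Values are log2 of the background-corrected, quantile-normalised signal, and a difference of 1 is a doubling. A probe passed at a Benjamini-Hochberg adjusted p under 0.05 over all 13577 probes tested, by limma, and errors of differences are standard errors (SE) of that fit.

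Median intensities of the arrays ranged from 103 to 193 units, with 10029 to 12078 probes detected on each. The PND5 arrays had lower highest signals than the GD20 arrays and fell into 2 sets: those numbered 1 to 4 reached 15335 to 17753 units, those numbered 5 to 7 reached 20110 to 29459 units, and the GD20 arrays 40826 to 55729 units. All 3 tested basal keratinocyte markers and all 6 dermal fibroblast markers were detected on every array. Foreskins are mixed tissue, so a change in the number of cells of a type and a change in RNA per cell cannot be told apart.

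Among the exposure comparisons, list members passed in 1, that of the lower dose in the fetus. With DBP100 at GD20, Itga7 and Ptk2 were higher than in the controls of the same study, and no other list probe passed. Itga7 is the alpha subunit of a laminin receptor known best from muscle. The DBP100 arrays read 8.15, 7.84, 7.72, 7.49 and 7.60, against a lowest of 6.41, a median of 6.99 and a highest of 7.37 on the 6 control arrays. Every DBP100 array therefore lay above every control, a separation that was not counted over all probes. The difference was 0.80 ± 0.158 (SE), which is 1.74-fold (limma adjusted p = 0.0192, n = 5 and 6).

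Ptk2, focal adhesion kinase, read 8.88, 9.16, 9.15, 8.85 and 8.92 in DBP100 litters, against a lowest of 8.25, a median of 8.52 and a highest of 8.97 in their controls. Only 2 of the 5 DBP100 arrays lay above every control, since control replicate 1 read 8.97. The difference was 0.45 ± 0.114, or 1.37-fold (limma adjusted p = 0.0496). The share of list probes that passed was 8%, against 0.589% of all probes tested (80 probes) in either direction and 0.081% higher. The median difference of the list was 0.03, against 0.02 for all probes.

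**Figure D1:**
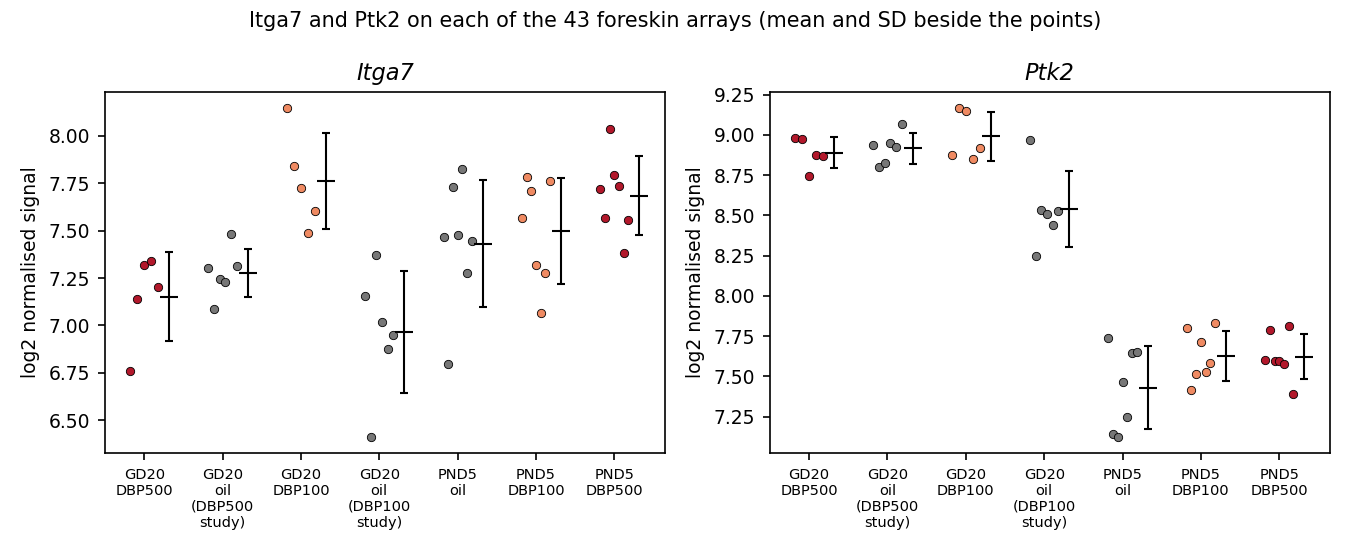
Log2 normalised signal of Itga7 and Ptk2 on each array by group, with the group mean and SD to the right of the points. Itga7 of the 5 GD20 DBP100 arrays lies between 7.49 and 8.15, above all 6 of their controls, while Ptk2 of those arrays overlaps control replicate 1 and lies near the arrays of the other GD20 study.

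Both calls were lost in some of the 11 fits that leave out 1 array. Over those fits the difference ran from 0.69 to 0.88 for Itga7 and from 0.39 to 0.54 for Ptk2. Itga7 did not pass when the fit held the compared arrays alone (adjusted p = 0.38), nor without control replicate 2 or 5 or DBP100 replicate 1, 2 or 3 (adjusted p from 0.00179 to 0.157 over the 11 fits that leave out 1 array). Ptk2 did not pass in 8 of those 11 fits, the exceptions being the fits without control replicate 1, DBP100 replicate 4 or DBP100 replicate 5 (adjusted p from 0.0163 to 0.283). The controls of the 2 GD20 studies also differed in Ptk2: mean 8.92 in the DBP500 study, against 8.54 in the DBP100 study (difference 0.38 ± 0.108, adjusted p = 0.0104). Against all 12 GD20 controls the Ptk2 difference was 0.26 (adjusted p = 0.319), and that of Itga7 was 0.64 (adjusted p = 0.0398). Without background correction and in the authors' processed values the Itga7 difference was 0.49 and 0.47, and it passed in both.

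Skeletal muscle and Schwann cells are both known to express Itga7, and their markers are given beside it. Of 7 tested skeletal muscle markers 6 were higher with DBP100 and 0 passed, and their summed signal ranged from 1088 to 3016 units in DBP100 litters, against 870 to 6434 in controls. Of 4 tested Schwann cell markers 3 were higher and 0 passed, with sums of 3803 to 5412 units in DBP100 litters, against 3691 to 4819 in controls. Their part in the Itga7 result was not tested.

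The next members by p with DBP100 at GD20 did not pass. Itga2, a collagen receptor subunit, averaged 5.17 ± 0.28 in DBP100 litters and 5.76 ± 0.44 in controls (SD, n = 5 and 6; difference -0.59 ± 0.207, adjusted p = 0.192), and was detected on 1 of 5 DBP100 arrays and 4 of 6 control arrays. Lamb2, a laminin beta chain, differed by 0.22 ± 0.113 (adjusted p = 0.469). Of the list's pathway partners, 1 of 25 focal adhesion adaptors, kinases and ligands passed and 0 of 12 basement membrane partners. The adaptor was Lims1, the PINCH protein that binds Ilk, with a mean of 6.40 in DBP100 litters and 8.45 in controls (difference -2.06 ± 0.42, adjusted p = 0.0192), and 3 of 5 DBP100 arrays lay below every control. In the controls of the DBP500 study, too, Lims1 was lower than in those of the DBP100 study (means 7.11 and 8.45, adjusted p = 0.0129). Ilk itself differed by at most 0.06 on any of its 3 probes and did not pass.

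With DBP500 at GD20, 0 of 25 list probes passed, against 0.302% of all probes (41), and 0 had an unadjusted p under 0.05 by limma, against 1003 of all probes. Differences ran from -0.70 to 0.20 with a median of -0.03, and the SE of a difference lay between 0.10 and 0.39 depending on the probe. Itga1, the collagen receptor subunit, had the smallest p: the DBP500 arrays read 7.95, 6.66, 7.94, 8.12 and 8.84, against 8.28 to 8.81 with a median of 8.63 in controls (difference -0.70 ± 0.39, adjusted p = 0.764). The exposed arrays spread widely, with 4 of 5 below every control and 1 above all of them. Itgb5, a vitronectin receptor subunit, differed by 0.20 ± 0.118 (adjusted p = 0.812) and Itgb7, a leukocyte integrin subunit, by -0.43 ± 0.264.

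Smooth muscle cells are known to express Itga1, and muscle markers are given beside it. With DBP500 at GD20 all 4 tested smooth muscle markers were lower and 1 passed, Tagln, an actin-binding protein of smooth muscle (-0.70 ± 0.153, adjusted p = 0.0214). Their summed signal was 1119 to 1455 units on DBP500 arrays, against 1814 to 2031 on control arrays. These ranges did not overlap, a separation that was not counted over all probes or over other sums. Most of the sum came from Tagln (means 9.31 with DBP500 and 10.01 in controls) and the smooth muscle actin Actg2 (9.22 and 9.72). Of the 4, 2 were detected on no DBP500 array and 1 on no control array. All 7 tested skeletal muscle markers were lower and 0 passed, with sums of 923 to 1734 units in DBP500 litters, against 1154 to 3944 in controls. Their part in the Itga1 values was not tested.

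At this dose neither Itga7 nor Ptk2 passed, and their arrays overlapped the controls. Itga7 read 6.76, 7.14, 7.32, 7.34 and 7.20 with DBP500, against 7.09 to 7.48 in controls, and Ptk2 averaged 8.89 ± 0.10 with DBP500 and 8.92 ± 0.10 in controls (SD). The test of the difference between the doses' effects gave -0.92 ± 0.223 for Itga7 (DBP500 effect minus DBP100 effect, adjusted p = 0.0957), -0.48 ± 0.161 for Ptk2 (adjusted p = 0.232) and 0.71 ± 0.293 for Itga2 (adjusted p = 0.358). None passed, and 0 of 25 list probes did, against 0.133% of all probes. The Itga7 difference passed in 3 of 22 fits that leave out 1 array, those without DBP100-study control replicate 3 (adjusted p = 0.0365), DBP100 replicate 4 (adjusted p = 0.0279) or DBP100 replicate 5 (adjusted p = 0.0426).

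**Figure D2:**
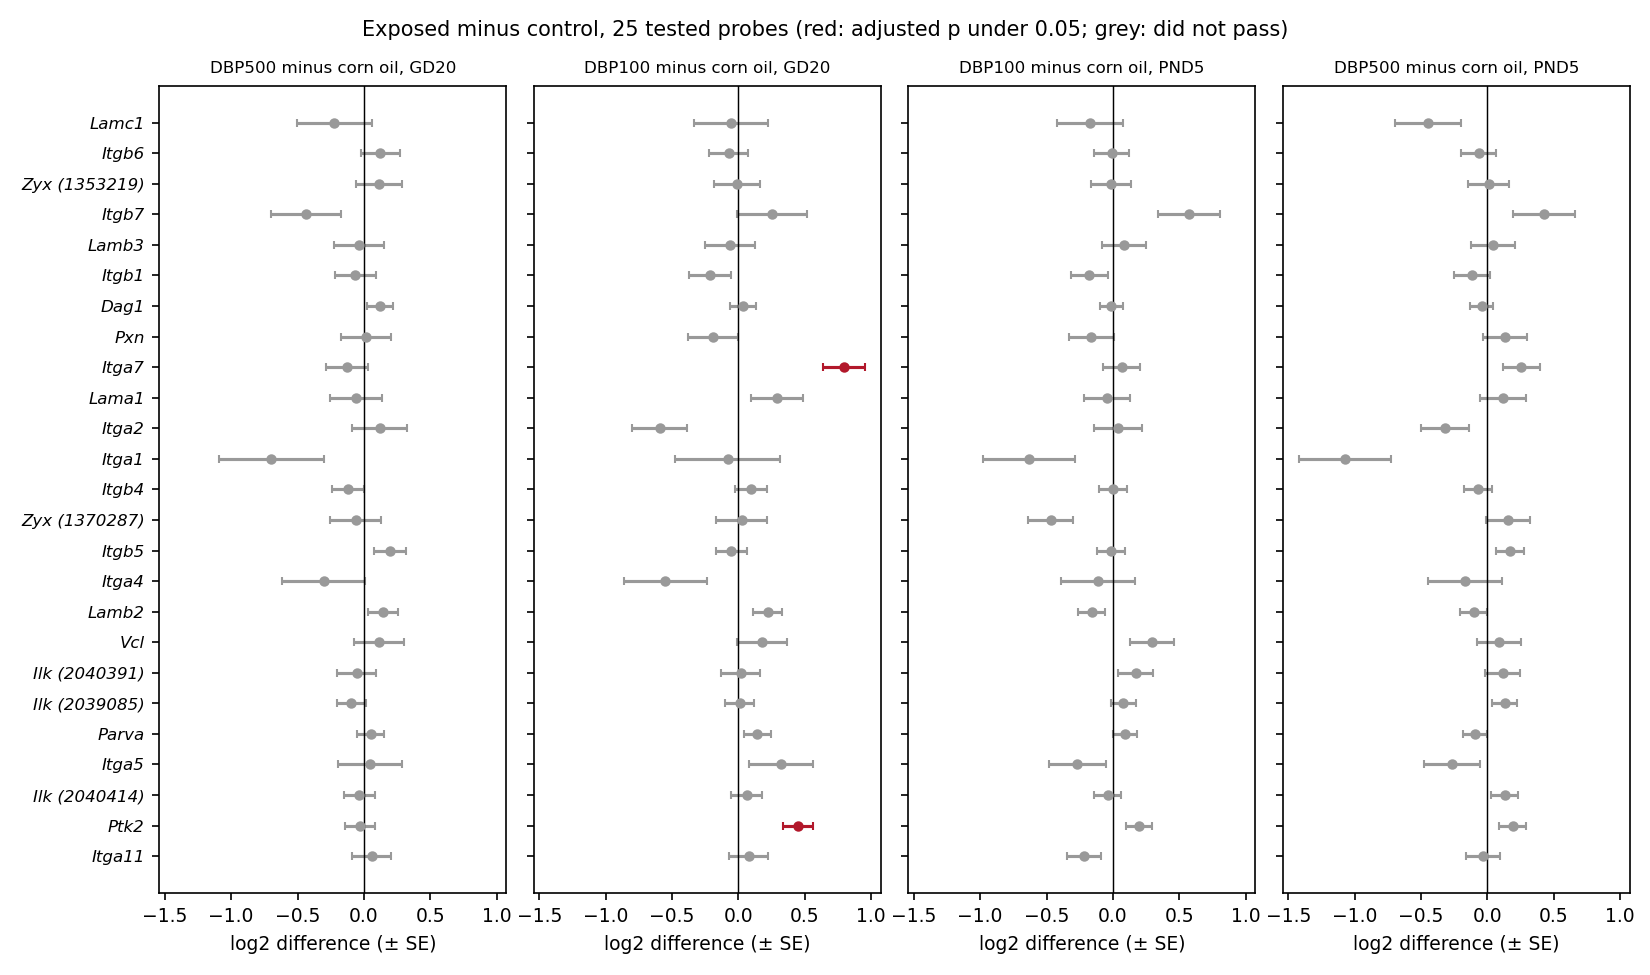
Log2 difference of exposed minus control litters with its SE for the 25 tested probes (rows) in 4 comparisons (panels), red where the adjusted p lay under 0.05. Itga7 (0.80) and Ptk2 (0.45) with DBP100 at GD20 are the 2 red points, and Itga1 has the lowest difference with DBP500 at both ages (-0.70 and -1.08).

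On PND5, 0 of 25 list probes passed for either dose. Itga1 had the smallest p with DBP500. Itga1 in PND5 litters ran from 7.88 to 8.95 (median 8.48) with corn oil, from 5.63 to 9.12 (median 7.87) with DBP100 and from 5.62 to 8.55 (median 7.58) with DBP500. The DBP500 arrays were low and scattered: 5 of 7 lay below every corn oil array, and the SD was 0.95, against 0.38 in corn oil litters. The difference with DBP500 was -1.08 ± 0.347 (adjusted p = 0.0692), and with DBP100 it was -0.63 ± 0.347. Without DBP500 replicate 7 the DBP500 difference passed, at -1.28 (adjusted p = 0.0238). Within the array sets it was -1.70 (arrays numbered 1 to 4) and -0.25 (arrays numbered 5 to 7), values for which no test was run.

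Of the 4 smooth muscle markers 3 were lower with DBP500 at PND5 and 0 passed, the smallest p being that of Actg2, the enteric smooth muscle actin (-0.58 ± 0.186, adjusted p = 0.0697). Their sums were 3501 to 6829 units with corn oil, 3000 to 5303 with DBP100 and 2810 to 4697 with DBP500, ranges that overlap. Of 7 skeletal muscle markers 4 were higher with DBP500 and 0 passed. Their part in the Itga1 values at this age was not tested.

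**Figure D3:**
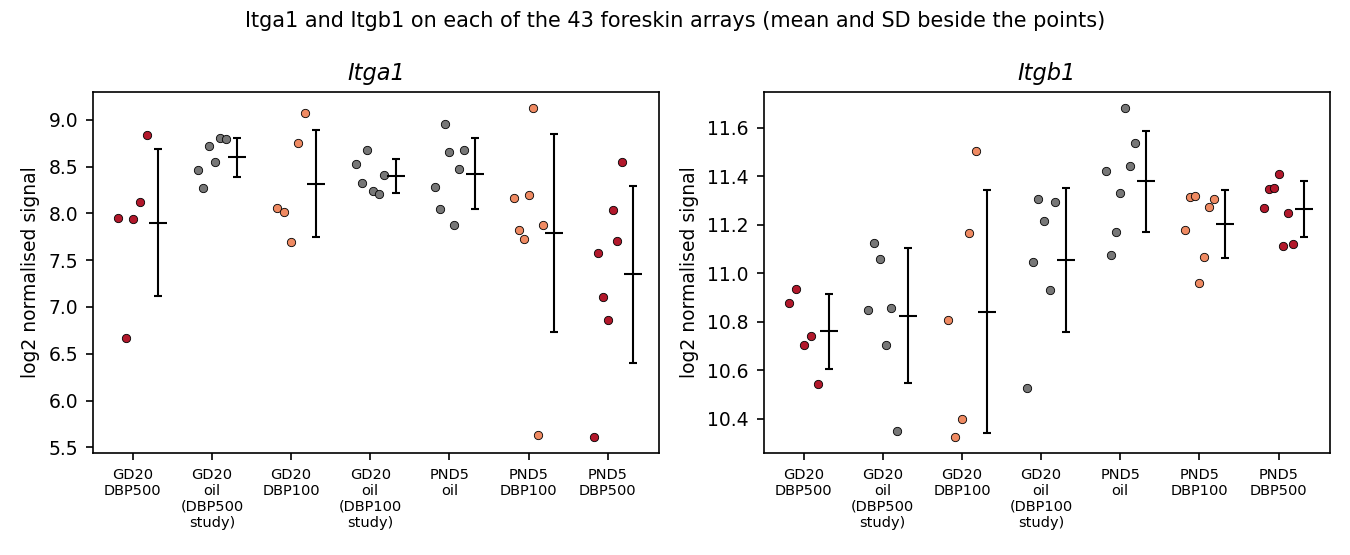
Log2 normalised signal of Itga1 and of Itgb1, the beta subunit it pairs with, on each array by group, with the group mean and SD to the right of the points. Itga1 falls to 5.62 on the lowest PND5 DBP500 array. Its SD is 0.78 to 1.06 in 3 exposed groups, 0.57 in the GD20 DBP100 group and 0.18 to 0.38 in the control groups.

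The background for DBP500 at PND5 was 3.67% of all probes (498), a share at which 0 calls among 25 probes says nothing particular to the list. Itga7 had means of 7.43 ± 0.34 with corn oil, 7.50 ± 0.28 with DBP100 and 7.68 ± 0.21 with DBP500 (SD, n = 7 each), and the DBP500 difference of 0.25 did not pass (adjusted p = 0.328). Ptk2 and Itgb7 differed with DBP500 by 0.19 ± 0.10 (adjusted p = 0.304) and 0.43 ± 0.233 (adjusted p = 0.327). Of the partners, 1 of 25 focal adhesion genes passed: Fermt2, kindlin-2, which activates integrins by binding the beta tail, averaged 11.85 with DBP500 and 12.18 with corn oil (difference -0.33 ± 0.092, adjusted p = 0.0314). The groups overlapped, with 1 of 7 DBP500 arrays below every corn oil array.

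With DBP100 at PND5, 0 of 25 passed, against 0.081% of all probes. The smallest p belonged to the dim second probe of Zyx, a zinc-finger protein of focal adhesions, at -0.47 ± 0.169 (adjusted p = 0.262), and the bright Zyx probe differed by -0.01. Itgb7 followed, with a lowest, median and highest of 6.14, 6.39 and 7.94 in DBP100 litters, against 5.25, 6.16 and 6.49 in corn oil litters (difference 0.58 ± 0.233, adjusted p = 0.341), and Ptk2 at 0.20 ± 0.10 (adjusted p = 0.492). Between the doses at PND5, 0 of 25 passed, against 0.0516% of all probes, and the second Zyx probe again had the smallest p (DBP500 minus DBP100, 0.62 ± 0.169, adjusted p = 0.213). That difference was 1.03 in arrays numbered 1 to 4 and 0.08 in those numbered 5 to 7. Parva, alpha-parvin, and Itga2 differed by -0.19 ± 0.09 (adjusted p = 0.54) and -0.36 ± 0.183 (adjusted p = 0.571).

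The tests of whether an exposure effect differed between the ages passed for 0 of 25 list probes at either dose, against 0.412% of all probes for DBP500 and 0% for DBP100, where limma called 0 probes and 1156 had an unadjusted p under 0.05. For DBP100 the Itga7 effect at PND5 minus that at GD20 was -0.73 ± 0.211 (adjusted p = 0.311), that of Lamb2 -0.38 ± 0.151 (adjusted p = 0.44) and that of Itga2 0.63 ± 0.276 (adjusted p = 0.504). For DBP500 the smallest p was that of Itgb7, at 0.86 ± 0.353 (adjusted p = 0.268), ahead of Itga7 at 0.38 ± 0.211 (adjusted p = 0.453) and Lamb2 at -0.25 ± 0.151 (adjusted p = 0.5).

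Far larger differences in these genes lay between the ages. In corn oil litters 16 of 25 list probes passed between PND5 and GD20, 8 higher and 8 lower, a share of 64% where 61.6% of all probes passed, 26.7% higher and 34.9% lower. The age groups were run on arrays of different studies and signal ranges, so age and array study cannot be told apart, and the values below describe both. The median difference was -0.08 over the list and -0.09 over all probes. How often the arrays of the ages failed to overlap was not counted over all probes. When each array was instead shifted to the same median, the median of all probes moved to -0.28, and 15 list probes passed, 5 higher and 10 lower, of which 12 were among the 16. Under that setting 65.4% of all probes passed (8878), 19% higher and 46.4% lower, so all probes shifted toward lower calls as the list did.

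For the genes with a promoter sequence, those of the 2 highest and 2 lowest age differences are printed, from 250 bases before to 50 after the gene's start, as given by RefSeq for the rat build GRCr8. Of the 26 genes, 20 had such an entry. Ilk was taken by its probe of lowest difference (-0.73), since its brightest probe differed by -0.45, less than Itga5 (-0.67). The windows are chr13:68051937-68052236 for Lamc1 (minus strand), chr3:65530284-65530583 for Itgb6 (minus strand), chr8:72041182-72041481 for Itga11 (plus strand) and chr1:169500471-169500770 for Ilk (plus strand), each 5′ to 3′. Capitals mark matches to the GC box GGGCGG and to the E-box CANNTG on either strand, overlapping matches included.
Lamc1: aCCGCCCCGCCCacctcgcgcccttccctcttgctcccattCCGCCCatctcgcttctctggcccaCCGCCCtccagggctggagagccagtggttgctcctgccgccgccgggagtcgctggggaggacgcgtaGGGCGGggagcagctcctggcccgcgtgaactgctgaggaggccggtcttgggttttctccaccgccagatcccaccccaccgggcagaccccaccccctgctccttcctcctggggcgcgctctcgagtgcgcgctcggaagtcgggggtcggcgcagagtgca
Itgb6: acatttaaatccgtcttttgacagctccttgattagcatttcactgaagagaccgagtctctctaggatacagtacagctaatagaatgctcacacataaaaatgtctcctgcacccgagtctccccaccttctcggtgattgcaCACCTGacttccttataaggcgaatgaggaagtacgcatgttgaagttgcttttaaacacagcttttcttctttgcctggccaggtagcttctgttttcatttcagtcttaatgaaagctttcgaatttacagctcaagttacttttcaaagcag
Itga11: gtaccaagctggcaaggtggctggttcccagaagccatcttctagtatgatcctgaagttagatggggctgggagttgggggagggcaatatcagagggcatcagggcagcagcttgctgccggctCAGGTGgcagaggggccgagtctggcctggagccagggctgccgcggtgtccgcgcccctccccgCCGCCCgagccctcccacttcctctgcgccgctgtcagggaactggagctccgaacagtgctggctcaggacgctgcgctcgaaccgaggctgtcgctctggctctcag
Ilk: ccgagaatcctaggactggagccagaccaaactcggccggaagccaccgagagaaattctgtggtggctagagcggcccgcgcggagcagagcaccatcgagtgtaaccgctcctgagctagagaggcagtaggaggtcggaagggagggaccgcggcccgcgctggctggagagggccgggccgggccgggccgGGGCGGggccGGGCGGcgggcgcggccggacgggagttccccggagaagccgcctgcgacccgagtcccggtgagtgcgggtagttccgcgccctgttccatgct

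The promoters differed most in base composition: 41.7% G or C in Itgb6, against 71.7% in Lamc1, 71.3% in Ilk and 65.7% in Itga11. Lamc1 held 5 matches to the GC box, Ilk 2, Itga11 1 and Itgb6 0, and 33.1% of all 33469 RefSeq promoters of this length hold at least 1. Itgb6 and Itga11 held 1 E-box match each, which 72.1% of all promoters hold. None of the 4 windows matched CCAAT, the CCAAT box, which 37.5% of all promoters hold on either strand. Nor did any match the TATA box TATAAA, held by 14.2%, or the AP-1 motif TGANTCA, held by 7.3%. These matches describe the letters alone.

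Among the laminins, Lamc1, the gamma chain shared by most laminins, had the largest rise. It ran from 7.63 to 8.08 (median 7.95) on the 7 PND5 corn oil arrays, against 5.07 to 6.38 (median 5.70) in the DBP500-study controls and 5.46 to 7.02 (median 5.80) in the DBP100-study controls at GD20. No PND5 array overlapped the GD20 controls, of which 9 of 12 detected the probe. The difference was 2.01 ± 0.221, or 4.03-fold (adjusted p = 1.99e-10), and 1.09 without background correction. Lamb3, a chain of the epidermal laminin of hemidesmosome attachment, averaged 6.48 ± 0.31 at PND5 and 6.04 over the GD20 controls (difference 0.44 ± 0.148, adjusted p = 0.00908). It did not pass against the DBP100-study controls alone (0.14, adjusted p = 0.523) or in DBP100 litters (0.28, adjusted p = 0.179). Lamb2, the beta chain of synaptic and vascular basement membranes, went the other way, at 10.53 ± 0.15 in PND5 litters and a mean of 10.77 in GD20 litters (difference -0.24 ± 0.089, adjusted p = 0.0199), and the groups overlapped. It did not pass against the DBP500-study controls alone (-0.12, adjusted p = 0.348). The size of the Lamb2 difference depended on the normalisation: it was -0.76 (adjusted p = 1.7e-05) with arrays shifted to the same median. Set against the median of all probes, Lamb2 stood at -0.14 under quantile normalisation and -0.49 under the median shift. Lama1, an embryonic alpha chain, was detected on 7 of 43 arrays and did not pass.

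Among the alpha integrins, Itga11 and Itga5 fell and Itga7 rose. Itga11, a fibrillar collagen receptor subunit of fibroblasts, ran from 7.21 to 7.69 (median 7.43) at PND5, against 8.94 to 9.29 (median 9.19) in the DBP500-study controls and 8.30 to 8.87 (median 8.82) in the DBP100-study controls. All PND5 arrays lay below all GD20 arrays, and the difference was -1.52 ± 0.113, or 2.87-fold lower (adjusted p = 3.04e-15). Itga5, the fibronectin receptor subunit, ran from 8.25 to 9.55 (median 9.21) at PND5, against 10.01 to 10.28 and 8.77 to 9.97 in the DBP500-study and DBP100-study controls. The difference was -0.67 ± 0.189 (adjusted p = 0.00243), but -0.25 (adjusted p = 0.34) against the DBP100-study controls alone.

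Itga7 averaged 7.43 ± 0.34 at PND5 and 7.12 in GD20 controls (difference 0.31 ± 0.124, adjusted p = 0.0284). It did not pass in 3 of 19 fits that leave out 1 array, without DBP100-study control replicate 2 (adjusted p = 0.0607) or PND5 replicate 3 or 5 (adjusted p = 0.0809 and 0.0955), nor against the DBP500-study controls alone (0.15, adjusted p = 0.375), nor with arrays shifted to the same median (0.24, adjusted p = 0.117). In DBP100 litters the age difference was -0.26 (adjusted p = 0.136). Itga1, Itga2 and Itga4 had differences of -0.08, -0.05 and -0.18 and did not pass.

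Among the beta integrins, Itgb6, an epithelial subunit that activates latent transforming growth factor beta, rose. It ran from 8.07 to 8.76 (median 8.65) at PND5, against 7.39 to 8.18 (median 7.72) in the DBP500-study controls and 7.17 to 7.90 (median 7.50) in the DBP100-study controls. On 6 of 7 PND5 arrays it lay above every GD20 control, and the difference was 0.90 ± 0.116, or 1.86-fold (adjusted p = 1.01e-08). Itgb7 averaged 6.07 ± 0.41 at PND5 and 5.51 in GD20 controls (difference 0.56 ± 0.208, adjusted p = 0.0177). It did not pass without PND5 replicate 7 (0.49, adjusted p = 0.0505) or against the DBP500-study controls alone (0.31, adjusted p = 0.276).

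Itgb1, the common beta subunit, averaged 11.38 ± 0.21 at PND5 and 10.94 in GD20 controls (difference 0.44 ± 0.122, adjusted p = 0.00191), but -0.13 (adjusted p = 0.474) with arrays shifted to the same median, and it did not pass against the DBP100-study controls alone (0.33, adjusted p = 0.0507). Set against the median of all probes, Itgb1 stood at 0.53 under quantile normalisation and 0.15 under the median shift. Itgb4 and Itgb5 had differences of -0.08 and -0.10 and did not pass, but both were lower with arrays shifted to the same median (-0.56, adjusted p = 0.000364, and -0.62, adjusted p = 0.000187). Itgb4 group means lay between 9.56 and 9.77 in all 7 groups.

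Inside the cell, Ptk2, Ilk and Parva were lower at PND5. Ptk2 ran from 7.13 to 7.74 (median 7.47) at PND5, against 8.80 to 9.07 (median 8.93) and 8.25 to 8.97 (median 8.52) in the DBP500-study and DBP100-study controls. No array overlapped, and the difference was -1.30 ± 0.089, or 2.46-fold lower (adjusted p = 3.30e-16). All 3 Ilk probes were lower, by -0.73 ± 0.091 (adjusted p = 4.49e-09), -0.45 ± 0.084 (adjusted p = 1.21e-05) and -0.37 ± 0.116 (adjusted p = 0.00518), as was Parva, alpha-parvin, a partner of Ilk, at -0.56 ± 0.08 (adjusted p = 1.04e-07). The 2 Ilk probes with the smaller differences did not pass in DBP500 litters (-0.09 and -0.03), nor the last of them against the DBP500-study controls alone (-0.20, adjusted p = 0.208).

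The bright Zyx probe and Dag1 were higher under quantile normalisation, but Dag1 turned to a negative difference with arrays shifted to the same median. The bright Zyx probe averaged 9.81 ± 0.27 at PND5 and 9.13 in GD20 controls (difference 0.68 ± 0.135, adjusted p = 3.50e-05), and the second Zyx probe, dim on these arrays, differed by -0.09 and did not pass. With arrays shifted to the same median the bright probe no longer passed (0.23, adjusted p = 0.228). Dag1, the laminin receptor dystroglycan, averaged 12.29 ± 0.18 at PND5 and 11.91 in GD20 controls (difference 0.38 ± 0.076, adjusted p = 4.53e-05), but -0.24 (adjusted p = 0.168) under the median shift. Set against the median of all probes, Dag1 stood at 0.47 and 0.04 under the 2 normalisations. Vcl, vinculin, and Pxn, paxillin, were detected on 24 and 28 of 43 arrays, differed by -0.31 and 0.31, and did not pass. Pxn did pass, higher at PND5, with arrays shifted to the same median (0.35, adjusted p = 0.0316). It also passed in DBP500 litters (adjusted p = 0.00036), detected there on 6 of 7 PND5 and 0 of 5 GD20 arrays.

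**Figure D4:**
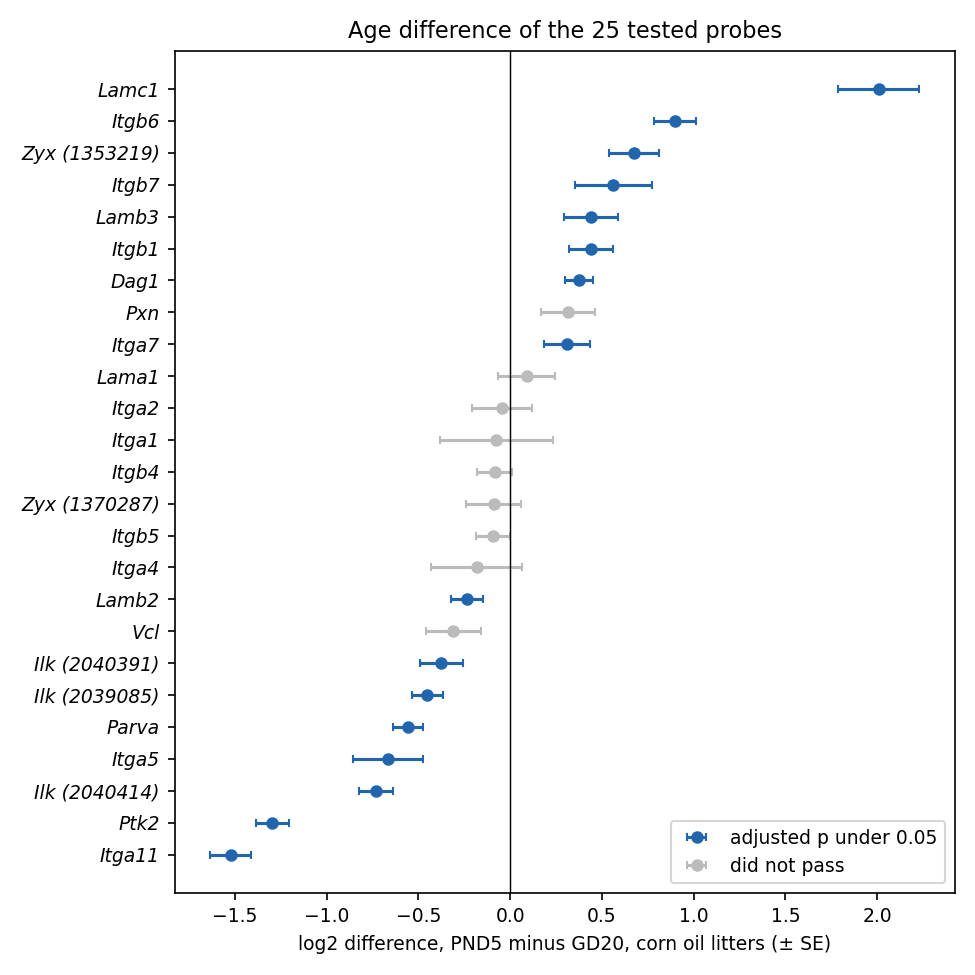
Log2 difference of PND5 minus GD20 in corn oil litters with its SE for each of the 25 tested probes, blue where the adjusted p lay under 0.05. Lamc1 (2.01) lies at the top and Itga11 (-1.52) and Ptk2 (-1.30) at the bottom, and the points of Itgb1 and Dag1 move to -0.13 and -0.24 when arrays are shifted to the same median.

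The age differences of Lamc1, Itgb6, Itga11, Ptk2, Parva and the Ilk probe at -0.73 passed with the same sign in all 19 fits that leave out 1 array and in all 12 other settings tried. These include the age difference in exposed litters. Lamc1 differed by 1.94 ± 0.272 in DBP500 litters and by 1.74 ± 0.272 in DBP100 litters, Itga11 by -1.82 ± 0.139 and -1.61 ± 0.139, and Ptk2 by -1.27 ± 0.11 and -1.36 ± 0.11. In DBP500 litters 16 list probes passed (55.4% of all probes) and in DBP100 litters 15 (58.9%), with 14 in each among the 16. Corn oil litters at PND5 gave 14 against the DBP500-study controls alone (59.4%) and 13 against the DBP100-study controls alone (54.7%). Within the PND5 array sets, set against all GD20 controls, Lamc1 differed by 1.95 (arrays numbered 1 to 4) and 2.09 (numbered 5 to 7), Itga11 by -1.52 and -1.53, and Ptk2 by -1.36 and -1.21.

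**Figure D5:**
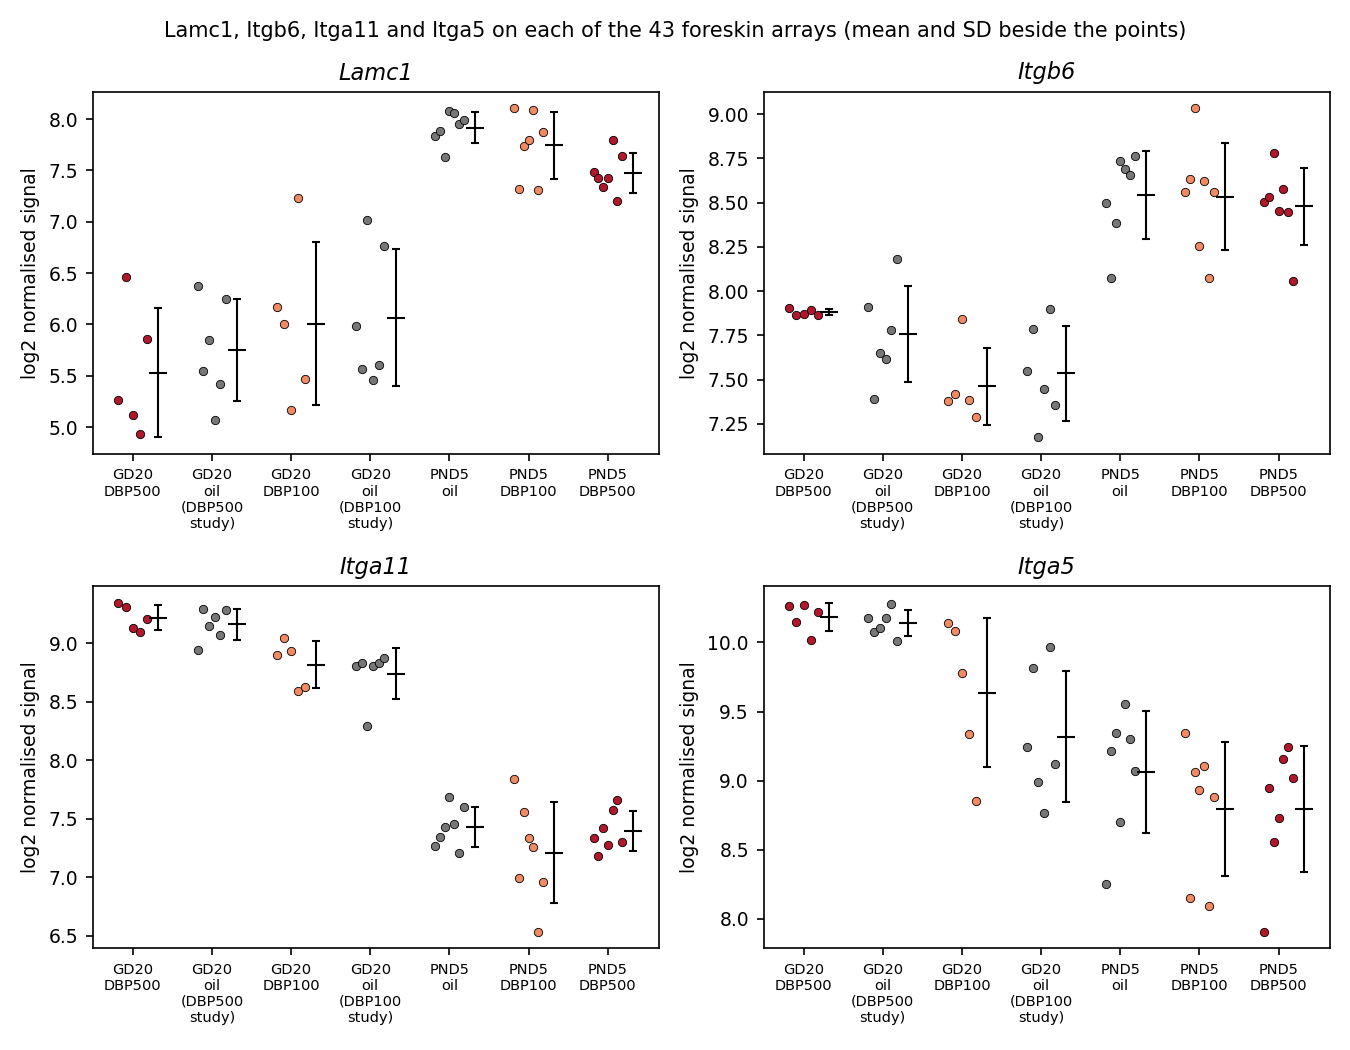
Log2 normalised signal of Lamc1, Itgb6, Itga11 and Itga5 on each array by group, with the group mean and SD to the right of the points. The PND5 arrays of Itga11 all lie at 7.84 or below and the GD20 arrays at 8.30 or above, while Itga5 of the GD20 DBP100 study, exposed and control, spreads from 8.77 to 10.14.

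Cell type markers moved with age as well. All 7 tested skeletal muscle markers were higher at PND5 and passed, with a median difference of 3.67, and their summed signal was 12078 to 28123 units on PND5 corn oil arrays, against 870 to 6434 units on GD20 corn oil arrays. All 5 tested markers of differentiated epidermis were higher and passed (median 2.12), with sums of 56437 to 70114 units at PND5, against 7600 to 25060 at GD20. Of 4 tested erythroid markers 3 passed, all lower (median -1.02), with sums of 7384 to 16603 units at PND5, against 23034 to 34615 at GD20. Of 6 dermal fibroblast markers 5 were higher and 1 lower (median 0.31), and 4 passed, all higher. Itga11, a subunit known from fibroblasts, was lower. The smooth muscle list had 3 higher and 1 lower of 4 passing, the leukocyte and macrophage list 3 higher and 1 lower of 5. The endothelial and Schwann cell lists each had 2 higher and 2 lower of 4, and of 3 basal keratinocyte markers 1 passed higher and 1 lower. Their part in the age differences of the adhesion genes was not tested.

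Counts for the partners of the list are to be read against the 61.6% of all probes that passed with age, 26.7% higher and 34.9% lower. Of 12 tested basement membrane partners 9 passed, 4 higher and 5 lower: Fbln1, a matrix glycoprotein, differed by -1.30 ± 0.11. Of 25 focal adhesion adaptors, kinases and ligands 13 passed, 7 higher and 6 lower. Thbs2, a matricellular protein, differed by 1.97 ± 0.182 and the adaptor Crk by 1.46 ± 0.14. Of 5 tested integrin genes outside the numbered subunits 3 passed, all higher, and Itgbl1, an integrin-like secreted protein, differed by 1.14 ± 0.123.

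The 2 sets of GD20 corn oil controls differed from each other in the list. Of 25 probes 6 passed, 3 higher and 3 lower in the DBP500 study than in the DBP100 study, against 22% of all probes (2991), 10.3% higher and 11.7% lower. Higher were Itga5 (10.14 in the DBP500 study, against 9.32 in the DBP100 study, difference 0.82 ± 0.23, adjusted p = 0.0085), Itga11 (0.42 ± 0.137, adjusted p = 0.0235) and Ptk2 (0.38 ± 0.108, adjusted p = 0.0104). Lower were Pxn (5.25 in the DBP500 study, against 5.94 in the DBP100 study, difference -0.69 ± 0.18, adjusted p = 0.00486), Itga2 (-0.68 ± 0.197, adjusted p = 0.011) and Lamb3 (-0.61 ± 0.179, adjusted p = 0.0117). Itga11 did not pass without DBP100-study control replicate 3 (0.33, adjusted p = 0.0859) or DBP500-study control replicate 6 (0.39, adjusted p = 0.0508). The median of all probes was 0.00 here and 0.15 with arrays shifted to the same median, where these 6 passed with the same signs. Of the partners, 3 of 12 basement membrane genes passed, 2 higher and 1 lower in the DBP500 study. Of the focal adhesion genes 7 of 25 passed, 2 higher and 5 lower. The 4 partners of smallest p were among the lower ones: Col7a1, the anchoring fibril collagen (-0.72), the actin crosslinker Actn4 (-1.50), the adhesion scaffold Bcar1 (-0.64) and the kinase Src (-0.80). Col7a1 was thus the only basement membrane partner that passed lower. All 5 tested markers of differentiated epidermis were lower there too and 4 passed, with sums of 7600 to 11968 units in the DBP500 study, against 15035 to 25060 units in the DBP100 study. Their part in these differences was not tested.

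Whether partner subunits vary together was examined for 2 pairs, and p-values were adjusted over these 2 alone. The other pairs planned lacked a tested probe for a gene. Pairs of Itgb1 with Itga2, Itga7 or Itga11 were not planned and not examined. With group means removed, Itgb1 and Itga5 had a Pearson r of -0.36 (permutation p = 0.0404, adjusted 0.0809) and a Spearman rho of -0.40 (permutation p = 0.0181, adjusted 0.0361) over 43 arrays, and r was -0.30 without the 2 arrays farthest from the median of Itgb1. Within array studies, where no test was run, r was 0.14 in the GD20 DBP500 study, -0.65 in the GD20 DBP100 study and -0.19 at PND5, so its sign was not the same in all 3. Itgb1 and Itga1 had an r of -0.07 (permutation p = 0.616) and a rho of -0.15 (permutation p = 0.349), and r was -0.50, 0.74 and -0.38 in the same 3 studies. The median r over all 296 pairs of list probes of different genes was 0.01.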

How the data were processed

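Gene expression was measured on 43 arrays, 1 per litter. The deposited table of non-normalized values gives, per the file headers, an intensity beside a detection p-value, by probe and array. A second deposited table gives the authors' processed intensity, quantile-normalized within each of 3 array studies, as its values show. The submitters' processing notes name limma.

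From the non-normalized intensities, background was estimated from the detection p-values (limma 3.58.1, R 4.3.3), values were raised by an offset of 16, the arrays quantile-normalised and log2 was taken. Probes detected (p under 0.05) on at least 5 arrays, 13577 of 22523 (60.3%), entered a fit with 1 mean for each of 7 groups and moderated spread (5.48 prior degrees of freedom), tested on simulated data. All tests are two-sided. The number of arrays limits the precision. Probe genes come from GEO's platform annotation: 13793 probes have 1 symbol and 8730 none. Groups come from the sample titles.

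Members, partner lists and marker lists were chosen with earlier results of these data known. Named were all members that passed, or the 3 of smallest p where none did, 15 genes fixed by symbol, and up to 4 partners per comparison that passed. Alternatives were another normalisation, no background correction, the authors' values, other filters and spreads, fewer or pooled arrays, blocks, and leaving out each array.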

Additional observations from a re-analysis of the deposited data

Results flagged for a closer look

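A value far from the rest of its group was looked for in each of the 54 groups that the calls rest on, by the gap to the nearest array over the range of the group, and chance alone flags about 1 group in 20. In 3 groups the gap was past the limit. Lamb2 in PND5 corn oil litters read 10.86 on replicate 5, and 10.38 to 10.54 on the others. Lamb2 in the GD20 controls of the DBP500 study read 10.20 on replicate 6, and 10.65 to 10.86 on the others. Itga11 in the GD20 controls of the DBP100 study read 8.30 on replicate 3, and 8.81 to 8.87 on the others.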

How the results depend on the processing

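The count for DBP100 at GD20 was 2 and became 1 with arrays shifted to the same median, with no detection filter, with a trended and robust spread, with the replicate number as a replicate block and with 12 GD20 controls pooled, where Itga7 stayed and Ptk2 left. It was 0 with the compared arrays alone, a fit with fewer degrees of freedom, and 0 to 2 over the fits leaving out 1 array. The whole-table count for it was 80 and ran from 0 to 464 over those fits and from 0 to 165 in other settings. Leaving out 1 array gave list counts of 0 to 1 for DBP500 at PND5 (0) and for the difference between doses at GD20 (0), of 15 to 17 for age and of 5 to 9 for the GD20 control studies. In other settings the list count was 0 for the exposure comparisons that follow, while whole-table counts moved: DBP500 at GD20 from 41 to between 18 and 106, DBP500 at PND5 from 498 to between 34 and 575, DBP100 at PND5 from 11 to between 0 and 18, the doses at PND5 from 7 to between 0 and 10, the dose difference at GD20 from 18 to between 0 and 19, and the age difference of the DBP500 effect from 56 to between 4 and 69. Leaving out 1 array gave 190 to 733 for DBP500 at PND5, 0 to 71 for DBP100 at PND5 and 0 to 126 for the dose difference. Reversed age differences were Itgb1 at -0.13 and Dag1 at -0.24 (median shift), and Itga7 at -0.26 in DBP100 litters, and the cause was not tested. Replicate numbers were not used to pair samples. Correlations of same-numbered arrays ran from -0.27 to 0.18, which shows no strong pairing but cannot exclude a weak one. The replicate block changed no list count but the one above. The age difference against each control study alone and in exposed litters was chosen after seeing the data. Probes detected on few arrays (Lama1, Itga2) have little signal over background, which limits what their differences can show.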
